A study of Mus musculus with 13 samples.

Results

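The 42 genes described here encode collagen chains. They are all the genes on the array whose annotated symbol has the form Col, a number, a, a number, and they were taken by that name alone out of 18193 genes with a probe set of their own. Of the 42, 31 passed the filter on low values and were tested, among 13783 genes tested in all. The tumours were SM1, a BRAFV600E mutant mouse melanoma implanted into C57BL/6 mice, and each mouse received splenocytes by adoptive transfer. Splenocytes of pmel-1 mice, a strain with a transgenic T cell receptor against the melanocyte protein that Pmel encodes, went to the pmel-1 recipients, and splenocytes of C57BL/6 mice went to the control recipients. The pmel-1 recipients were given the BRAF inhibitor dabrafenib together with the MEK inhibitor trametinib (3 arrays), dabrafenib (2 arrays), trametinib (2 arrays) or vehicle (2 arrays), and the control recipients both drugs (2 arrays) or vehicle (2 arrays). All 13 arrays thus come from 1 transplanted tumour line and from mice that had received transferred cells, and the labels do not say whether the replicates of a group are separate mice, so the p-values measure only the spread between these samples, which may be technical.

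Collagens are trimers of chains wound into a triple helix. Fibrillar collagens such as types I, III and V form the banded fibrils of connective tissue, types II, IX and XI make the fibrils of cartilage, and type IV chains form the sheet that underlies epithelia and surrounds vessels. FACIT collagens sit on the surface of fibrils, type VI forms beaded filaments near cells, and type XVIII is a basement membrane proteoglycan whose end fragment is endostatin. In tumours most fibrillar collagen is made by fibroblasts, while tumour cells and vessel cells contribute basement membrane chains. The array measures RNA of the whole tumour, so that fewer cells of a type and less RNA per cell cannot be told apart.

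Values are log2 intensities, compared within a gene and never between genes. A level under 5.79, the filter level, is taken as not well above background. Changes are log2 differences ± SE from a limma fit over all 13 arrays, with Benjamini-Hochberg adjustment over the 13783 genes, and a gene is said to rise, fall or change where the adjusted p is under 0.05. Across genes, the correlation between 2 arrays of 1 group was 0.983 to 0.994. Markers of melanocytes and melanoma were present, with a mean level of 12.61 to 12.76 over 7 genes on the drug-treated arrays, against 11.97 to 12.08 on the vehicle arrays. A measure of RNA quality moved with the groups: the 3′ over 5′ log2 ratio of the actin and Gapdh control probe sets was 0.60 to 1.65 on the 7 arrays of pmel-1 recipients given a drug and 0.18 to 0.42 on the other 6. The mean of 4 adipocyte markers was 6.97 to 7.68 on 3 arrays of pmel-1 recipients (replicate 2 of the combination, replicate 2 of dabrafenib, replicate 1 of trametinib) and 5.06 to 5.90 elsewhere. The mean of 5 skeletal muscle markers was 7.33 on control vehicle replicate 3, against at most 5.97 on any other array.

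With both drugs, over both kinds of recipient, 12 of the 31 tested collagen genes changed, 9 up and 3 down. That is 38.7% of them, below the 52.6% of all tested genes that changed in this comparison (28.1% up and 24.5% down). The median change was 0.30 over the 31 collagens and 0.01 over all genes tested. The cartilage collagens Col2a1, Col9a1 and Col9a2 fell. The genes that rose were Col4a4, Col14a1, Col1a1, Col3a1, Col18a1, Col20a1, Col5a2, Col16a1 and Col11a2. By class, 3 of 6 tested fibrillar genes of connective tissue rose (median 0.90). Of 7 cartilage genes, a class that here holds further fibrillar chains and the FACIT type IX, 3 fell and 1 rose (median -0.32). Among type IV genes 1 of 4 rose (median 0.30), and 1 of 3 other basement membrane zone genes rose (median 0.01). Of the 5 tested FACIT genes outside type IX 3 rose (median 0.52). The 3 type VI genes, the 1 type VIII gene and the 2 transmembrane collagens had no call.

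**Figure D1:**
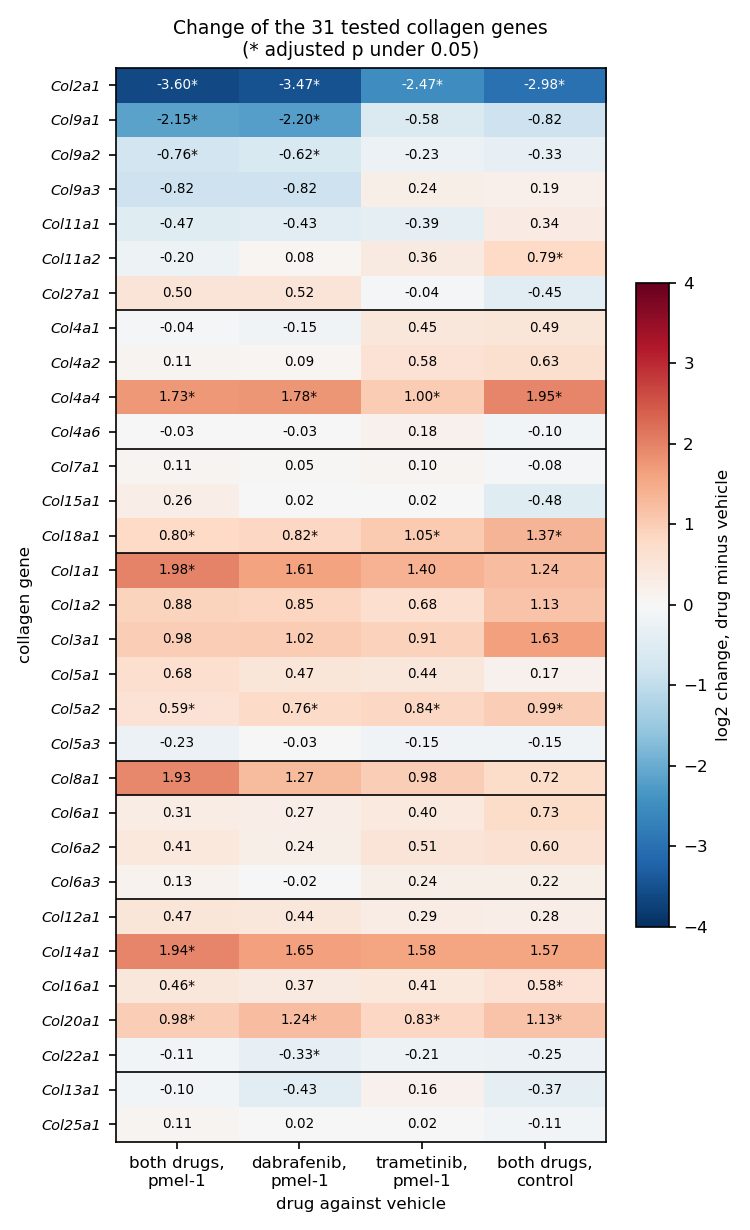
Log2 change of each of the 31 tested collagen genes (rows, grouped by class) in 4 comparisons of a drug treatment with vehicle (columns). Colour gives the size and sign of the change and a star an adjusted p under 0.05. Col2a1 is the deepest fall in all 4 columns, and Col4a4 and Col18a1 carry a star for a rise in all 4.

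The 11 collagen genes that were not tested are Col10a1, Col17a1, Col19a1, Col23a1, Col24a1, Col26a1, Col4a3, Col4a5, Col6a4, Col6a5 and Col8a2. Col10a1, the collagen of hypertrophic cartilage, read 5.20 to 5.94 over the 13 arrays and passed the filter level on 1 of them. Col4a3 and Col19a1 each passed it on 1 array too, with values of 5.14 to 5.80 and 5.23 to 5.85. Col17a1, a hemidesmosome collagen of keratinocytes, read 3.36 to 4.06. The other 7 stayed under the filter level on every array, on the probe sets kept.

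Col2a1, which encodes the only chain of type II collagen, the main fibril of cartilage, had the largest fall of the family. Among pmel-1 recipients, Col2a1 read 7.23, 6.85 and 7.49 with both drugs, 8.07 and 6.56 with dabrafenib and 8.05 and 8.59 with trametinib, against 11.16 and 10.42 with vehicle. In control recipients Col2a1 read 7.94 and 7.23 with both drugs, against 10.73 and 10.41 with vehicle. Every drug-treated array, at 6.56 to 8.59, lay below every vehicle array, at 10.41 to 11.16. Over both kinds of recipient Col2a1 averaged 7.39 with both drugs, against 10.68 with vehicle, a change of -3.29 ± 0.30 or 9.78-fold lower (adjusted p = 5.23e-06). The change was -3.60 ± 0.40 in pmel-1 recipients and -2.98 ± 0.44 in control recipients with both drugs, -3.47 ± 0.44 with dabrafenib and -2.47 ± 0.44 with trametinib (adjusted p from 5.00e-05 to 0.0012). All 5 calls held in each of the 11 alternatives and the 13 single-array omissions.

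Type IX collagen, which decorates the type II fibril, is a trimer of the products of Col9a1, Col9a2 and Col9a3. Among pmel-1 recipients, Col9a1 read 10.76, 10.33 and 11.96 with both drugs, 12.04 and 9.9 with dabrafenib and 12.66 and 12.52 with trametinib, against 13.14 and 13.2 with vehicle. In control recipients Col9a1 read 12.91 and 11.85 with both drugs, against 13.31 and 13.09 with vehicle. The 4 vehicle arrays lay between 13.09 and 13.31 and every drug-treated array below them, but the drug-treated arrays spread from 9.90 to 12.91. With both drugs over both kinds of recipient Col9a1 averaged 11.70, against 13.18 with vehicle, a change of -1.48 ± 0.43 or 2.8-fold lower (adjusted p = 0.0121). A second probe set of Col9a1 changed by -1.82 ± 0.39 (adjusted p = 0.0025 over the probe sets past the filter). Among pmel-1 recipients, Col9a2 read 7.17, 7.36 and 7.36 with both drugs, 7.61 and 7.28 with dabrafenib and 7.78 and 7.88 with trametinib, against 8.19 and 7.92 with vehicle. In control recipients Col9a2 read 7.3 and 7.44 with both drugs, against 8.03 and 7.36 with vehicle. 1 vehicle array, control replicate 3, lay among the drug-treated ones. Col9a2 averaged 7.33 with both drugs, against 7.87 with vehicle, and fell by 0.54 on the log2 scale (SE 0.13, adjusted p = 0.0051). Among pmel-1 recipients, Col9a3 read 11.04, 11.18 and 11.97 with both drugs, 12.13 and 10.66 with dabrafenib and 12.4 and 12.51 with trametinib, against 12.28 and 12.15 with vehicle. In control recipients Col9a3 read 12.65 and 11.96 with both drugs, against 12.09 and 12.14 with vehicle. Within pmel-1 recipients Col9a3 lay below the vehicle arrays with both drugs and with dabrafenib and above them with trametinib, while in control recipients both drugs and vehicle overlapped. Over both kinds of recipient its change of -0.32 ± 0.28 had no call (adjusted p = 0.3809), nor did its other probe set past the filter (-0.05 ± 0.39). The call of Col9a1 was lost without control combination replicate 3 (-1.22, adjusted p = 0.0586), and after adjustment for the 3′ over 5′ ratio or for the fibroblast marker level the changes were -0.56 and -0.86 for Col9a1 and -0.43 and -0.36 for Col9a2, with no call.

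The letters before the start sites of Col9a1 and Col9a2 are shown because both genes fell, from RefSeq on GRCm38.p6. Each window runs 5′ to 3′ from 250 to 22 bases before the annotated start, Col9a1 at chr1:24177360-24177588 on the plus strand and Col9a2 at chr4:121039316-121039544 on the plus strand. Capitals mark matches on either strand to the CCAAT box, to the letters GGGCGG of the GC box, to the letters TATAA of the TATA box or to the letters ACAAAG, part of the core that SOX factors bind.
Col9a1: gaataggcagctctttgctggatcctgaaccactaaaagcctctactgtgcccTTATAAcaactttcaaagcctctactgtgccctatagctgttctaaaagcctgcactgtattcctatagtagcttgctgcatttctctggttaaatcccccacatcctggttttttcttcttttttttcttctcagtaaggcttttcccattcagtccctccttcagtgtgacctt
Col9a2: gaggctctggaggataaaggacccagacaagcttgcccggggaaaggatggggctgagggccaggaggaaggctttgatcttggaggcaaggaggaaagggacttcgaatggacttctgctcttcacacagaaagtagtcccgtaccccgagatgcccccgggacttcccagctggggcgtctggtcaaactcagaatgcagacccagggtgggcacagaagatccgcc
The Col9a1 window holds TATAA on both strands, which overlap in 1 run of capitals, and the Col9a2 window holds none of the 4. Of 32851 RefSeq windows of this length 32.0% held CCAAT, 29.7% GGGCGG, 21.8% TATAA and 15.4% ACAAAG. Windows were given for 33 of the 42 collagen genes, of which 12, 17, 7 and 3 held them in that order. A match of letters is a description and not a shown site.

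Col11a2 and Col11a1 encode chains of type XI collagen, found in the core of cartilage fibrils. Among pmel-1 recipients, Col11a2 read 6.6, 6.46 and 6.72 with both drugs, 6.95 and 6.79 with dabrafenib and 7.06 and 7.23 with trametinib, against 6.95 and 6.63 with vehicle. In control recipients Col11a2 read 7.09 and 7.17 with both drugs, against 6.5 and 6.17 with vehicle. The control recipients' groups did not overlap, while in pmel-1 recipients the values with both drugs overlapped those with vehicle. The change was 0.79 ± 0.15 in control recipients (adjusted p = 0.0017), which held in all alternatives and omissions, and -0.20 ± 0.14 in pmel-1 recipients (adjusted p = 0.2693). The average over both, 0.30 ± 0.10 (adjusted p = 0.0269), was lost without pmel-1 combination replicate 3 (0.27), control combination replicate 3 (0.28), pmel-1 vehicle replicate 2 (0.22) or control vehicle replicate 3 (0.22). Among pmel-1 recipients, Col11a1 read 8.48, 8.22 and 8.85 with both drugs, 8.76 and 8.35 with dabrafenib and 8.57 and 8.63 with trametinib, against 9.2 and 8.77 with vehicle. In control recipients Col11a1 read 9.47 and 9.11 with both drugs, against 8.43 and 9.47 with vehicle. In each kind of recipient Col11a1 with both drugs overlapped with vehicle, and it had no call over both kinds (-0.06 ± 0.21, adjusted p = 0.8315). Within pmel-1 recipients its dabrafenib and trametinib arrays lay below the vehicle arrays. With both drugs its pmel-1 arrays lay below the control arrays. Neither of these had a call. Col27a1, a further collagen of cartilage, ranged from 8.03 to 9.46 and changed by 0.03 ± 0.23 (adjusted p = 0.9344).

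**Figure D2:**
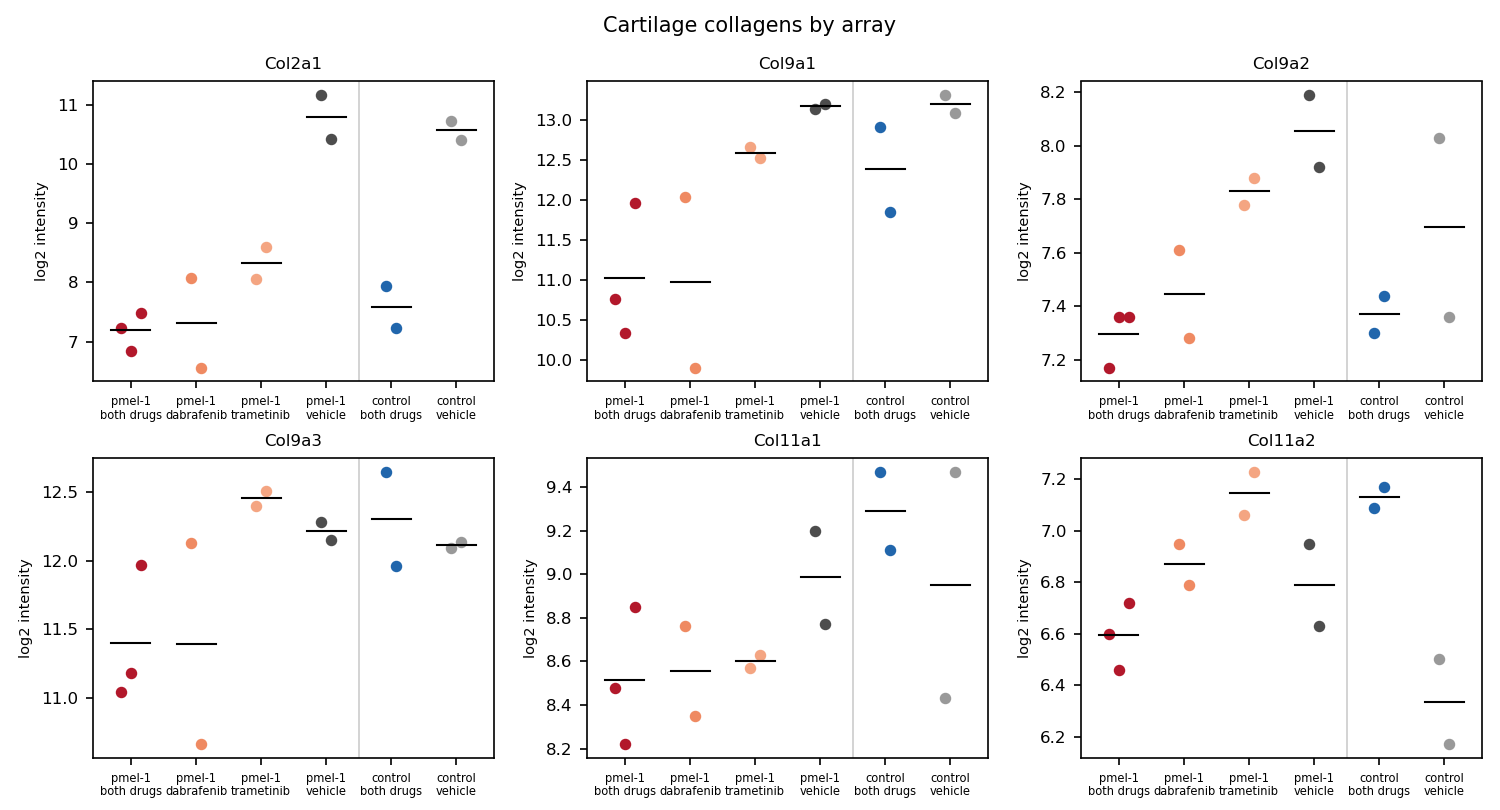
Log2 intensity of cartilage collagen genes on each array (points), by group, with pmel-1 recipients left of control recipients and drug treatments left of vehicle. Every drug-treated point of Col2a1 lies at or below 8.59 and every vehicle point at or above 10.41, while Col9a3 with both drugs overlaps with vehicle in control recipients.

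Basement membrane chains differed among themselves. Col4a4 encodes a chain of the type IV network of kidney, lung and inner ear, where it assembles with the products of Col4a3 and Col4a5. Among pmel-1 recipients, Col4a4 read 9.59, 9.54 and 9.84 with both drugs, 9.51 and 9.91 with dabrafenib and 9.24 and 8.62 with trametinib, against 8.02 and 7.83 with vehicle. In control recipients Col4a4 read 9.83 and 9.86 with both drugs, against 7.78 and 8.01 with vehicle. All drug-treated arrays, at 8.62 to 9.91, lay above all vehicle arrays, at 7.78 to 8.02, with the trametinib arrays lowest among the treated. With both drugs over both kinds of recipient Col4a4 averaged 9.75, against 7.91 with vehicle, a rise of 1.84 ± 0.14 or 3.58-fold (adjusted p = 1.32e-06). The change was 1.73 ± 0.18 in pmel-1 and 1.95 ± 0.20 in control recipients with both drugs, 1.78 ± 0.20 with dabrafenib and 1.0 ± 0.20 with trametinib (adjusted p from 3.64e-05 to 0.0025). The 2 other probe sets of Col4a4 rose too, by 1.80 ± 0.16 and 0.59 ± 0.10. Its partner chains were not tested: Col4a3, its neighbour in the genome, read at most 5.80 and Col4a5 at most 5.67 on the probe sets kept, and a second probe set of Col4a5 at most 5.89.

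Col4a1 and Col4a2 lie side by side on opposite strands and encode the chains of the common type IV network. Among pmel-1 recipients, Col4a1 read 10.8, 11.43 and 11.68 with both drugs, 10.81 and 11.59 with dabrafenib and 11.94 and 11.65 with trametinib, against 11.45 and 11.25 with vehicle. In control recipients Col4a1 read 12.22 and 12.41 with both drugs, against 11.53 and 12.11 with vehicle. Among pmel-1 recipients, Col4a2 read 9.59, 10.35 and 10.5 with both drugs, 9.65 and 10.6 with dabrafenib and 10.81 and 10.42 with trametinib, against 10.17 and 9.9 with vehicle. In control recipients Col4a2 read 10.86 and 11.12 with both drugs, against 10.07 and 10.65 with vehicle. Both genes were highest in control recipients given both drugs, and their ranges with both drugs and with vehicle overlapped over both kinds of recipient. Within control recipients the arrays with both drugs lay above the vehicle arrays for both genes. Within pmel-1 recipients the trametinib arrays did so too, while both drugs and dabrafenib overlapped with vehicle. None of these differences had a call. Over both kinds of recipient Col4a1 and Col4a2 changed with both drugs by 0.22 ± 0.21 and 0.37 ± 0.23, neither with a call (adjusted p = 0.3993 and 0.2110). Col4a6 read 5.88 to 6.57 over the 13 arrays and changed by -0.06 ± 0.14 (adjusted p = 0.7538). Among pmel-1 recipients, Col4a6 read 6.47, 5.88 and 5.94 with both drugs, 6.15 and 6.05 with dabrafenib and 6.04 and 6.57 with trametinib, against 6.04 and 6.21 with vehicle. In control recipients Col4a6 read 6.13 and 6.18 with both drugs, against 6.1 and 6.4 with vehicle. These values overlapped between all groups.

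Col18a1, the gene of the endostatin precursor, rose in every drug comparison. Among pmel-1 recipients, Col18a1 read 11.61, 11.54 and 11.58 with both drugs, 11.45 and 11.73 with dabrafenib and 11.67 and 11.97 with trametinib, against 10.88 and 10.67 with vehicle. In control recipients Col18a1 read 11.83 and 11.79 with both drugs, against 10.37 and 10.51 with vehicle. Drug-treated arrays lay at 11.45 to 11.97, all above the vehicle arrays at 10.37 to 10.88. The rise over both kinds of recipient was 1.09 ± 0.09 or 2.13-fold (adjusted p = 3.06e-06), with 0.80 ± 0.12 in pmel-1 and 1.37 ± 0.13 in control recipients given both drugs, 0.82 ± 0.13 with dabrafenib and 1.05 ± 0.13 with trametinib. The calls of Col4a4 and Col18a1 held in all 11 alternatives and 13 omissions in each of these 5 comparisons. The RefSeq window of Col18a1, chr10:77166552-77166780 on the minus strand of GRCm38.p6, is shown with the same marking, this being the rise with the smallest SE.
Col18a1: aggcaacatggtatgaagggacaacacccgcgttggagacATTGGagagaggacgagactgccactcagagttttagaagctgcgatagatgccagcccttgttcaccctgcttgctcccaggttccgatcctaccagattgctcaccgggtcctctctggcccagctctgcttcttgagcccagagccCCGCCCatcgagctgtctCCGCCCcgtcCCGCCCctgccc
It holds GGGCGG 3 times and CCAAT 1 time, each as its reverse complement. Col7a1, the anchoring fibril of skin, and Col15a1, a proteoglycan close to type XVIII, did not have a call. Among pmel-1 recipients, Col15a1 read 7.62, 7.94 and 7.95 with both drugs, 7.34 and 7.88 with dabrafenib and 7.62 and 7.58 with trametinib, against 7.93 and 7.24 with vehicle. In control recipients Col15a1 read 7.74 and 8.11 with both drugs, against 7.62 and 9.2 with vehicle. Control vehicle replicate 3 stood above the rest, and the change was -0.11 ± 0.28 (adjusted p = 0.7633). Among pmel-1 recipients, Col7a1 read 7.1, 6.77 and 7 with both drugs, 6.88 and 6.92 with dabrafenib and 6.93 and 6.96 with trametinib, against 6.88 and 6.82 with vehicle. In control recipients Col7a1 read 6.69 and 6.76 with both drugs, against 6.67 and 6.94 with vehicle. The whole range of Col7a1 was 6.67 to 7.10, and its change was 0.01 ± 0.09 (adjusted p = 0.9258).

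**Figure D3:**
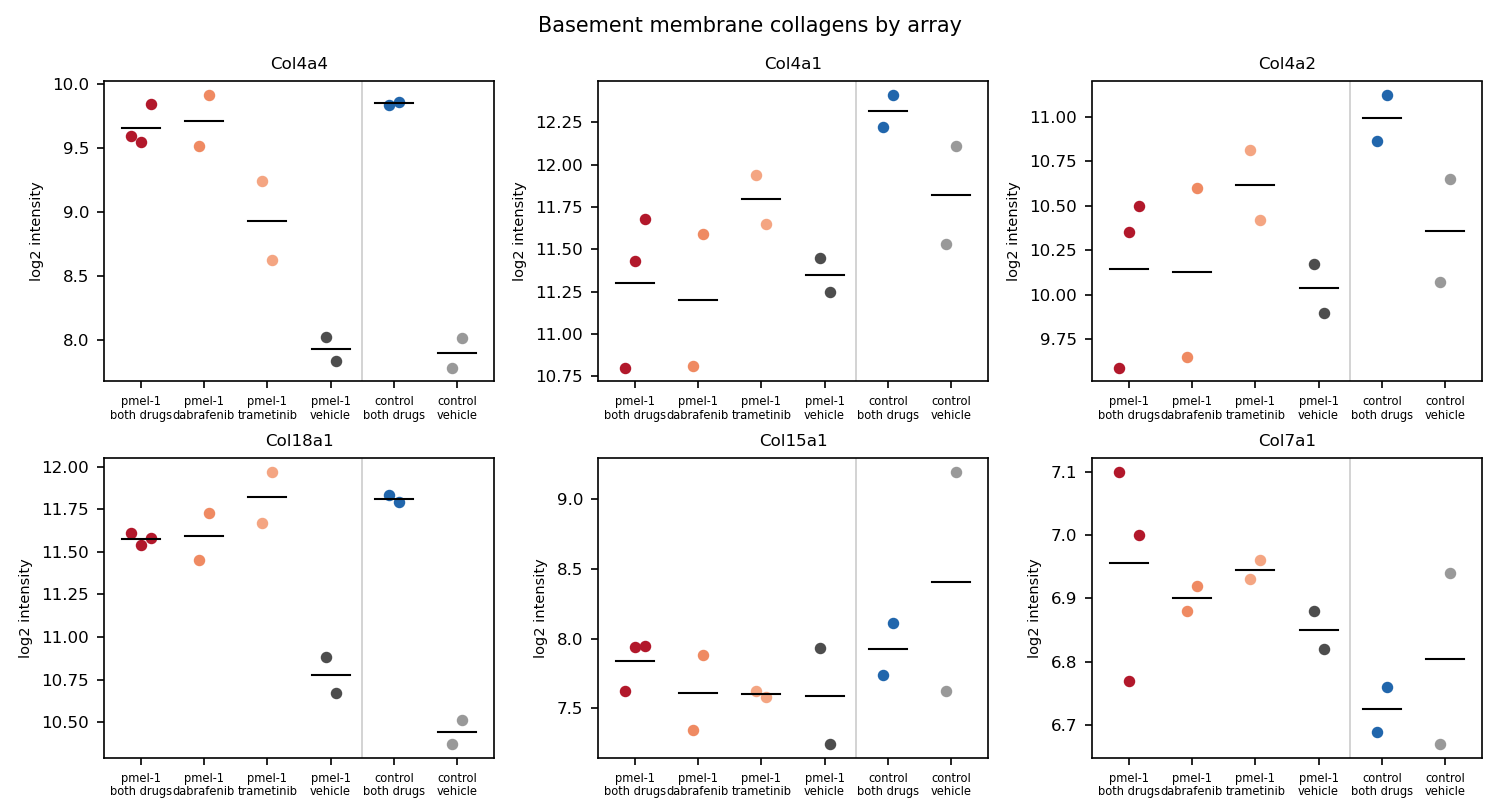
Log2 intensity of basement membrane collagen genes on each array (points), by group in the same order as for the cartilage genes. Col4a4 and Col18a1 are higher on all drug-treated arrays than on any vehicle array. For Col4a1 and Col4a2 the drug-treated and vehicle arrays overlap over both kinds of recipient, but not with both drugs within control recipients.

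Among the fibrillar collagens of connective tissue, Col1a1, Col3a1 and Col5a2 rose with both drugs over both kinds of recipient, and Col5a2 also passed in each of the 4 comparisons within 1 kind of recipient. Col5a2 encodes a type V chain, which lies inside type I fibrils and sets their width. Among pmel-1 recipients, Col5a2 read 11.41, 11.27 and 11.51 with both drugs, 11.48 and 11.65 with dabrafenib and 11.59 and 11.71 with trametinib, against 10.95 and 10.67 with vehicle. In control recipients Col5a2 read 11.81 and 12.12 with both drugs, against 10.58 and 11.38 with vehicle. Within pmel-1 recipients all drug-treated arrays exceeded the vehicle arrays, and control vehicle replicate 3 lay inside the range of the treated arrays of pmel-1 recipients. Col5a2 averaged 11.68 with both drugs, against 10.89 with vehicle, a rise of 0.79 ± 0.15 or 1.73-fold (adjusted p = 9.28e-04), which held in all alternatives and omissions. Its second probe set rose by 1.10 ± 0.18. Changes were 0.59 ± 0.20 and 0.99 ± 0.22 with both drugs in pmel-1 and control recipients, 0.76 ± 0.22 with dabrafenib and 0.84 ± 0.22 with trametinib.

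Col1a1 and Col1a2 encode the 2 chains of type I collagen, and Col3a1, next to Col5a2 in the genome, the chain of type III. Among pmel-1 recipients, Col1a1 read 10.38, 11.14 and 11.14 with both drugs, 9.35 and 11.69 with dabrafenib and 10.88 and 9.74 with trametinib, against 9.3 and 8.52 with vehicle. In control recipients Col1a1 read 10.6 and 11.5 with both drugs, against 8.85 and 10.77 with vehicle. The 2 dabrafenib arrays and the 2 control vehicle arrays of Col1a1 lay far apart. Among pmel-1 recipients, Col3a1 read 11.05, 11.69 and 12.4 with both drugs, 10.77 and 12.73 with dabrafenib and 11.92 and 11.37 with trametinib, against 10.77 and 10.71 with vehicle. In control recipients Col3a1 read 12.87 and 13.55 with both drugs, against 10.55 and 12.61 with vehicle. Control vehicle replicate 3 read higher than most drug-treated arrays of pmel-1 recipients. Among pmel-1 recipients, Col1a2 read 11.07, 11.66 and 12.23 with both drugs, 10.64 and 12.62 with dabrafenib and 11.64 and 11.28 with trametinib, against 11.03 and 10.53 with vehicle. In control recipients Col1a2 read 12.39 and 13.14 with both drugs, against 10.62 and 12.65 with vehicle. Within pmel-1 recipients Col1a2 with both drugs and with trametinib lay above vehicle, while dabrafenib overlapped with it, as did both drugs with vehicle in control recipients. With both drugs over both kinds of recipient Col1a1 changed by 1.61 ± 0.52 (3.05-fold, adjusted p = 0.0213), Col3a1 by 1.30 ± 0.47 (2.47-fold, adjusted p = 0.0372) and Col1a2 by 1.0 ± 0.47, with no call (adjusted p = 0.0942). The second probe sets of Col1a1 and Col3a1 changed by 0.90 ± 0.52 and 1.39 ± 0.56, with no call (adjusted p = 0.1825 and 0.0607). Col5a1 ranged from 9.04 to 10.29 and changed by 0.42 ± 0.22 (adjusted p = 0.1392). Col5a3 ranged from 8.73 to 9.32 and changed by -0.19 ± 0.10 (adjusted p = 0.1452).

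The windows of Col3a1, chr1:45311288-45311516 on the plus strand, and Col1a2, chr6:4505368-4505596 on the plus strand, both of GRCm38.p6 from RefSeq, are shown as those of a type III and a type I chain.
Col3a1: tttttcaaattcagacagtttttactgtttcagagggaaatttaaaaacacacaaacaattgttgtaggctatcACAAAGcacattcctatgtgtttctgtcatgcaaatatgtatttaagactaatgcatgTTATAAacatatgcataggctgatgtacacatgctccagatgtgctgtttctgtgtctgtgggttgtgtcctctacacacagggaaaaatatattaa
Col1a2: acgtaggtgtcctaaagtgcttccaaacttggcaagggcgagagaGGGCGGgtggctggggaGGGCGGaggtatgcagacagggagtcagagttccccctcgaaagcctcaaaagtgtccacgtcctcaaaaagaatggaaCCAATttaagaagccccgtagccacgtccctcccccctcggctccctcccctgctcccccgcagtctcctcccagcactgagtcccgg
The Col3a1 window holds TATAA on both strands in 1 overlapping run and ACAAAG 1 time, whereas that of Col1a2 holds GGGCGG 2 times and CCAAT 1 time.

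Levels of 7 fibroblast markers were read beside the fibrillar genes. Their mean was 8.23 to 9.74 with both drugs, 7.84 to 9.22 with dabrafenib and 8.47 to 8.82 with trametinib, against 7.98 to 8.97 with vehicle. Each of the 7 was above the filter level on at least 1 array of each group. Fap was under it on pmel-1 vehicle replicate 1 (5.45) and control vehicle replicate 1 (5.72), and Pdgfra on dabrafenib replicate 1 (5.31). With both drugs 3 of the 7 rose and 0 fell (median 0.32): Lum by 2.16 ± 0.45, Dcn by 1.92 ± 0.39 and Fap by 0.98 ± 0.34, while Pdgfra, the receptor of platelet-derived growth factor that marks fibroblasts, had a change of -0.62 ± 0.27 with no call (adjusted p = 0.0752). Over all genes tested 28.1% rose and 24.5% fell in this comparison. Of the 7 markers, 0 passed with both drugs, dabrafenib or trametinib in pmel-1 recipients, against 45.6%, 41.4% and 38.6% of all genes. In control recipients 2 rose with both drugs, against 18.7% of all genes. With the marker mean as a covariate, an alternative added after the data were seen, the changes were 0.32 ± 0.30 for Col1a1 and 0.06 ± 0.20 for Col3a1, with no call, and Col5a2 kept its call. After adjustment for the 3′ over 5′ ratio they were 0.74 ± 0.52 and 0.77 ± 0.57, also with no call. Col1a1 also lost its call as the mean of its probe sets (1.25 ± 0.51) and with the replicate number as a block (1.35 ± 0.5). Col3a1 also lost its call with the adipocyte marker level as a covariate (1.05 ± 0.44). The part of other cells or of RNA quality in these changes was not tested further. The call of Col1a1 was lost without control combination replicate 3 (1.38), pmel-1 vehicle replicate 2 (1.41) or control vehicle replicate 1 (1.13), and that of Col3a1 without pmel-1 combination replicate 2 (1.31) or 3 (1.13), control combination replicate 3 (1.13), pmel-1 vehicle replicate 1 (1.32) or 2 (1.29), or control vehicle replicate 1 (0.79).

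**Figure D4:**
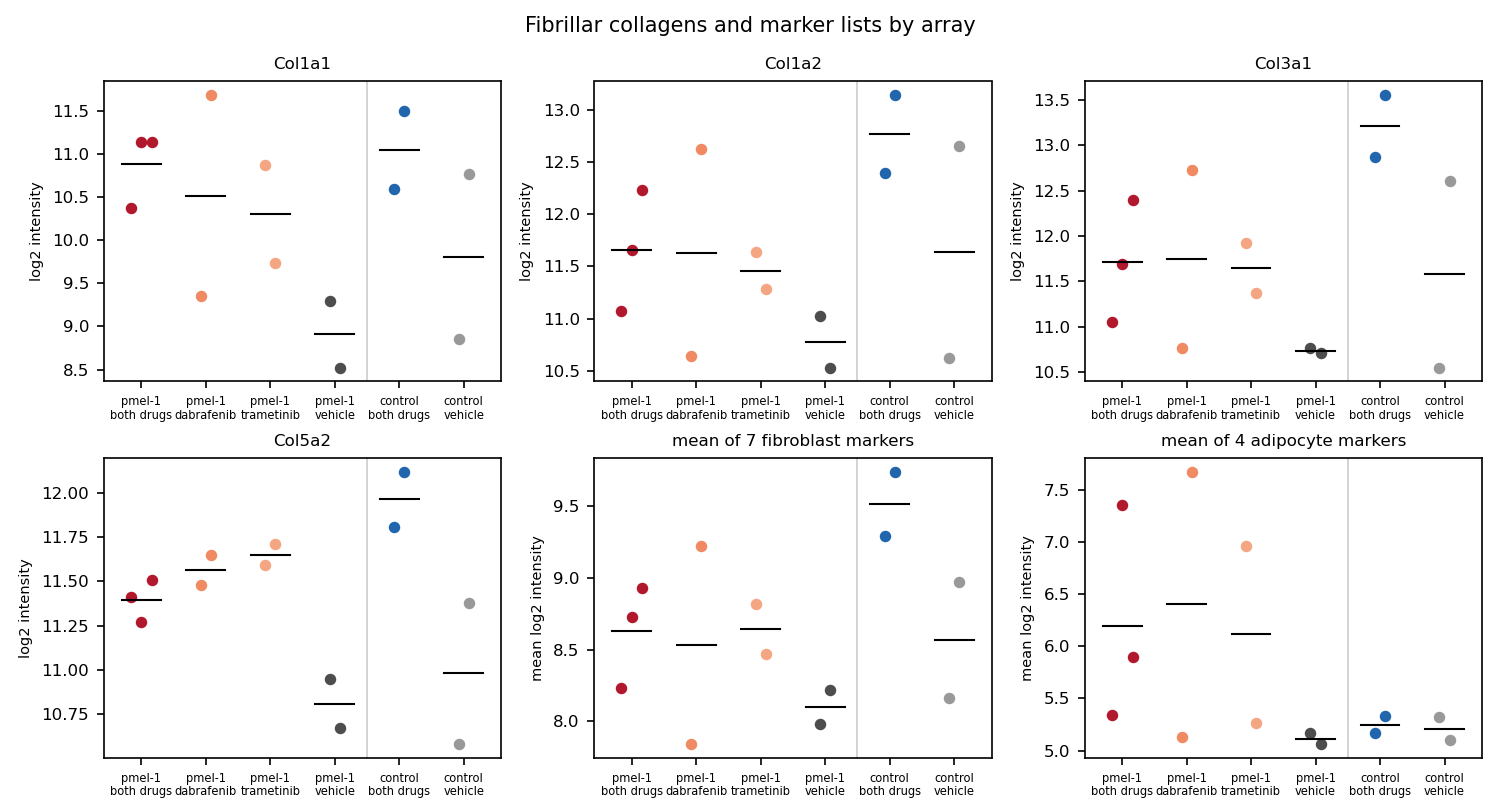
Log2 intensity of 4 fibrillar collagen genes on each array (points), by group in the same order, beside the mean of 7 fibroblast markers and of 4 adipocyte markers. Col1a1, Col1a2 and Col3a1 vary between arrays of the same group, as does the fibroblast mean, which spans 7.84 to 9.22 between the 2 dabrafenib arrays.

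Of the FACIT collagens outside type IX, Col20a1, Col14a1 and Col16a1 rose with both drugs. Among pmel-1 recipients, Col20a1 read 10.21, 10.2 and 10 with both drugs, 9.91 and 10.89 with dabrafenib and 10.02 and 9.95 with trametinib, against 9.29 and 9.02 with vehicle. In control recipients Col20a1 read 9.64 and 10.03 with both drugs, against 8.5 and 8.92 with vehicle. All drug-treated arrays lay above all vehicle arrays. Col20a1 averaged 9.99 with both drugs, against 8.93 with vehicle, a rise of 1.05 ± 0.18 or 2.08-fold (adjusted p = 4.80e-04) that held in all alternatives and omissions. Its 3 other probe sets rose by 0.78 ± 0.16, 0.78 ± 0.19 and 1.05 ± 0.15. Col14a1 encodes a collagen that binds to type I fibrils. Among pmel-1 recipients, Col14a1 read 7.81, 8.42 and 8.77 with both drugs, 6.91 and 9.17 with dabrafenib and 8.28 and 7.67 with trametinib, against 6.39 and 6.39 with vehicle. In control recipients Col14a1 read 9 and 9.25 with both drugs, against 6.84 and 8.27 with vehicle. Only control vehicle replicate 3 among the vehicle arrays reached the range of the treated ones. Col14a1 rose by 1.75 ± 0.43 or 3.37-fold (adjusted p = 0.0046), and its second probe set past the filter by 0.80 ± 0.18. Among pmel-1 recipients, Col16a1 read 10.88, 10.77 and 10.72 with both drugs, 10.5 and 10.91 with dabrafenib and 10.71 and 10.78 with trametinib, against 10.43 and 10.25 with vehicle. In control recipients Col16a1 read 10.34 and 10.89 with both drugs, against 10.11 and 9.96 with vehicle. Col16a1 rose by 0.52 ± 0.12 or 1.43-fold (adjusted p = 0.0040), with 1 treated array, control replicate 2, inside the vehicle range. After adjustment for the 3′ over 5′ ratio Col14a1 changed by 1.08 ± 0.45 and Col16a1 by 0.34 ± 0.13, and with the fibroblast level Col16a1 by 0.41 ± 0.16, all with no call.

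The other tested FACIT genes outside type IX, Col12a1 and Col22a1, had no call with both drugs. Among pmel-1 recipients, Col12a1 read 6.59, 7.42 and 7.86 with both drugs, 6.37 and 8.13 with dabrafenib and 7.57 and 6.63 with trametinib, against 7.21 and 6.43 with vehicle. In control recipients Col12a1 read 7.39 and 8.64 with both drugs, against 7.07 and 8.41 with vehicle. Its arrays with both drugs overlapped those with vehicle (0.38 ± 0.45, adjusted p = 0.5216). Among pmel-1 recipients, Col22a1 read 6.32, 6.19 and 6.21 with both drugs, 6.16 and 5.87 with dabrafenib and 6.16 and 6.12 with trametinib, against 6.35 and 6.35 with vehicle. In control recipients Col22a1 read 6.24 and 6.2 with both drugs, against 6.51 and 6.44 with vehicle. The treated arrays of Col22a1, at 5.87 to 6.32, lay just below the vehicle arrays, at 6.35 to 6.51, and the change with both drugs was -0.18 ± 0.07 (adjusted p = 0.0600).

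Type VI chains and Col8a1, a network collagen of vessel walls, were spread widely within groups. Among pmel-1 recipients, Col8a1 read 8.51, 8.69 and 9.44 with both drugs, 7.05 and 9.39 with dabrafenib and 8.45 and 7.4 with trametinib, against 7.2 and 6.69 with vehicle. In control recipients Col8a1 read 8.79 and 9.79 with both drugs, against 7.4 and 9.75 with vehicle. Control vehicle replicate 3, at 9.75, lay near the top of all arrays. The change with both drugs was 1.32 ± 0.55 (95% interval 0.12 to 2.53, adjusted p = 0.0624). Among pmel-1 recipients, Col6a1 read 8.65, 9.24 and 9.49 with both drugs, 8.3 and 9.89 with dabrafenib and 9.5 and 8.94 with trametinib, against 8.99 and 8.65 with vehicle. In control recipients Col6a1 read 9.63 and 10.5 with both drugs, against 8.78 and 9.89 with vehicle. Among pmel-1 recipients, Col6a2 read 9.28, 9.91 and 10 with both drugs, 8.65 and 10.47 with dabrafenib and 10.3 and 9.36 with trametinib, against 9.46 and 9.17 with vehicle. In control recipients Col6a2 read 10.01 and 10.99 with both drugs, against 9.39 and 10.4 with vehicle. Col6a1 and Col6a2, which are neighbours in the genome, were lowest on dabrafenib replicate 1 and highest on control combination replicate 3. Among pmel-1 recipients, Col6a3 read 9.04, 9.69 and 9.88 with both drugs, 8.72 and 10.07 with dabrafenib and 10.01 and 9.3 with trametinib, against 9.88 and 8.95 with vehicle. In control recipients Col6a3 read 10.02 and 10.8 with both drugs, against 9.51 and 10.89 with vehicle. Col6a3 was highest on control vehicle replicate 3. The changes of the 3 genes were 0.52 ± 0.35, 0.51 ± 0.38 and 0.17 ± 0.37, none with a call (adjusted p = 0.2419, 0.2969 and 0.7345).

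The transmembrane collagens Col13a1 and Col25a1 had no call on the probe sets kept. Among pmel-1 recipients, Col13a1 read 5.76, 5.87 and 5.92 with both drugs, 5.69 and 5.34 with dabrafenib and 6.34 and 5.87 with trametinib, against 5.9 and 5.99 with vehicle. In control recipients Col13a1 read 6.01 and 5.76 with both drugs, against 6.2 and 6.32 with vehicle. Col13a1 passed the filter level on 9 of 13 arrays and changed by -0.24 ± 0.11 (adjusted p = 0.10). Among pmel-1 recipients, Col25a1 read 7.59, 7.28 and 7.41 with both drugs, 7.37 and 7.28 with dabrafenib and 7.32 and 7.34 with trametinib, against 7.2 and 7.43 with vehicle. In control recipients Col25a1 read 7.24 and 7.18 with both drugs, against 7.23 and 7.41 with vehicle. Its change was 0.00 ± 0.08 (adjusted p = 0.9868). A second probe set of Col25a1 read 4.77, 4.89 and 4.60 in pmel-1 recipients given both drugs, 4.58 and 4.62 with dabrafenib and 5.11 and 5.58 with trametinib, against 6.41 and 6.31 with vehicle. In control recipients it read 4.79 and 4.62 with both drugs, against 7.12 and 6.56 with vehicle. All treated values lay under the filter level and all vehicle values above it, so that it passed the filter through the vehicle arrays alone, and neither a difference nor a p is given. Of the 40 further probe sets of collagen genes 22 passed the filter, 19 had the same call as the kept one in this comparison, and 0 had the opposite call.

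Within the control recipients, both drugs changed 7 of the 31 genes, 6 up and 1 down (22.6%, against 35.4% of all genes tested, 18.7% up and 16.7% down). Col2a1 fell, and Col4a4, Col18a1, Col20a1, Col5a2, Col11a2 and Col16a1 rose. The median was 0.34, against 0.00 over all genes. Of these calls Col16a1 (0.58) was lost without control combination replicate 3 (0.30), control vehicle replicate 1 (0.65) or 3 (0.50), and Col20a1 (1.13) was lost without combination replicate 3 of the control recipients (0.93) or vehicle replicate 1 (0.92). With the fibroblast marker level as a covariate Col5a2 (0.73, adjusted p = 0.0514), Col20a1 (0.66, adjusted p = 0.0645) and Col16a1 (0.44, adjusted p = 0.1832) had no call. Col16a1 had none either with only the arrays compared (adjusted p = 0.0732) or with the replicate number as a block (adjusted p = 0.0625). Col2a1, Col4a4, Col18a1 and Col11a2 kept their call in every alternative and omission. Without control vehicle replicate 3 the count was 11.

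Within the pmel-1 recipients, both drugs changed 10 of the 31 genes, 7 up and 3 down (32.3%, against 45.6% of all genes tested, 24.3% up and 21.2% down), with a median of 0.26, against 0.02 over all genes. Col2a1, Col9a1 and Col9a2 fell, by 3.60, 2.15 and 0.76 on the log2 scale. The rises were those of Col1a1 (1.98 ± 0.70), Col14a1 (1.94 ± 0.57), Col4a4 (1.73 ± 0.18), Col20a1 (0.98 ± 0.24), Col18a1 (0.80 ± 0.12), Col5a2 (0.59 ± 0.20) and Col16a1 (0.46 ± 0.16). Col2a1, Col4a4 and Col18a1 kept their call in every alternative and omission, and the other 7 did not. The calls of Col1a1, Col5a2, Col9a1, Col14a1, Col16a1 and Col20a1 were lost without pmel-1 vehicle replicate 2 (1.59, 0.45, -2.12, 1.94, 0.37 and 0.85), and those of Col1a1, Col5a2, Col9a1, Col9a2, Col14a1 and Col16a1 without vehicle replicate 1 (2.36, 0.72, -2.18, -0.63, 1.94 and 0.55), the count being 4 in both cases. Without pmel-1 combination replicate 3 those of Col1a1 (1.85), Col5a2 (0.53), Col14a1 (1.72) and Col16a1 (0.49) were lost, without replicate 2 those of Col1a1 (1.85) and Col16a1 (0.46), and without replicate 1 those of Col5a2 (0.58) and Col16a1 (0.41). Col16a1 was also lost without either trametinib array or either control vehicle array (0.46 each). With the 3′ over 5′ ratio, which differs between these groups, in the model, 3 genes passed, and the share of all genes tested was 20% in place of 45.6%.

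Dabrafenib alone changed 8 of the 31 genes, 4 up and 4 down (25.8%, against 41.4% of all genes tested, 21.9% up and 19.6% down), with a median of 0.09, against 0.01 over all genes. Col2a1 (-3.47 ± 0.44), Col9a1 (-2.20 ± 0.63), Col9a2 (-0.62 ± 0.20) and Col22a1 (-0.33 ± 0.11) fell. Col4a4 (1.78 ± 0.20), Col20a1 (1.24 ± 0.27), Col18a1 (0.82 ± 0.13) and Col5a2 (0.76 ± 0.22) rose. The 2 dabrafenib arrays stood far apart for many members, replicate 2 being the higher for Col1a1, Col3a1 and Col14a1 and the lower for Col9a1 and Col9a3. Without dabrafenib replicate 2 the count was 4, with the calls of Col5a2 (0.67), Col9a1 (-1.13), Col9a2 (-0.45) and Col22a1 (-0.19) lost, and without replicate 1 it was 17. Without pmel-1 vehicle replicate 1 those of Col9a1 (-2.23), Col9a2 (-0.48) and Col22a1 (-0.33) were lost, and without vehicle replicate 2 those of Col5a2 (0.62), Col9a1 (-2.17) and Col22a1 (-0.33), with 5 calls in both cases. After adjustment for the 3′ over 5′ ratio 3 genes passed, and 18.2% of all genes in place of 41.4%. Trametinib alone changed 5 of the 31 genes, 4 up and 1 down (16.1%, against 38.6% of all genes tested, 19.5% up and 19.1% down), with a median of 0.36, against 0.03 over all genes. Col2a1 (-2.47 ± 0.44) fell, and Col18a1 (1.05 ± 0.13), Col4a4 (1.0 ± 0.20), Col5a2 (0.84 ± 0.22) and Col20a1 (0.83 ± 0.27) rose. The call of Col5a2 was lost without trametinib replicate 2 (0.78) or pmel-1 vehicle replicate 2 (0.71), which left 3 calls each, and that of Col20a1 without any 1 of the trametinib (0.79 and 0.86) or pmel-1 vehicle arrays (0.96 and 0.69). Both also lost it after adjustment for the 3′ over 5′ ratio (0.81 and 0.26), under which 24.5% of all genes changed. With dabrafenib and with trametinib Col2a1, Col4a4 and Col18a1 kept their call in every alternative and omission. These drug comparisons share the pmel-1 vehicle arrays.

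No collagen gene passed between the drug treatments in the limma fit. Between dabrafenib and trametinib 0 of 31 passed, 5 at an unadjusted p under 0.05, and 0.776% of all genes tested changed. Col4a4 was higher by 0.78 ± 0.20 with dabrafenib (95% interval 0.34 to 1.22, adjusted p = 0.1176), and Col2a1, Col9a1 and Col9a3 had differences of -1.01 ± 0.44, -1.62 ± 0.63 and -1.06 ± 0.42 (adjusted p = 0.4039, 0.3326 and 0.3378). Without dabrafenib replicate 1 the count was 4. Between the combination and dabrafenib 0 of 31 passed, 2 unadjusted, and 0% of all genes. Between the combination and trametinib 0 of 31 passed, 6 unadjusted, against 1.1% of all genes, with Col11a2 at -0.56 ± 0.14 (95% interval -0.85 to -0.26, adjusted p = 0.0849) and Col4a4 at 0.73 ± 0.18 (95% interval 0.33 to 1.13, adjusted p = 0.0923). The missing calls do not show that the drugs acted alike, and several of these intervals exclude 0.

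Nor did any collagen gene pass between pmel-1 and control recipients in the limma fit. Over both arms 0 of 31 passed, 6 at an unadjusted p under 0.05, against 2.02% of all genes tested, and the median was -0.37, against -0.02 over all genes. Col4a1 averaged 11.33 in pmel-1 recipients and 12.07 in control recipients, a difference of -0.74 ± 0.21 (95% interval -1.20 to -0.28, adjusted p = 0.0866). The count was 1 without either dabrafenib array or without control vehicle replicate 1. Among vehicle tumours 0 of 31 passed, 2 unadjusted, against 0% of all genes. Among tumours given both drugs 0 of 31 passed, 8 unadjusted, against 4.24% of all genes, with Col4a1 at -1.01 ± 0.28, Col4a2 at -0.84 ± 0.31 and Col11a2 at -0.53 ± 0.14 (adjusted p = 0.0655, 0.1342 and 0.0509). The count was 2 without pmel-1 combination replicate 3 or without either dabrafenib array. In these tumours the fibroblast marker mean was 8.23 to 8.93 in pmel-1 recipients and 9.29 to 9.74 in control recipients. Of the 7 markers (median -0.44) 1 had a call, against 4.24% of all genes. That was Lum, a proteoglycan of collagen fibrils named after its values were seen, which was lower in pmel-1 recipients (-2.61 ± 0.61, adjusted p = 0.0405). The interaction, the change with both drugs in pmel-1 recipients minus that in control recipients, had 0 of 31 calls, 2 unadjusted, against 0.283% of all genes, with Col11a2 at -0.99 ± 0.20 (95% interval -1.43 to -0.55, adjusted p = 0.0747).

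Markers of other cells were read in the comparison of both drugs with vehicle over both kinds of recipient. Over all genes tested 28.1% rose and 24.5% fell in this comparison. Of 7 tested melanocyte and melanoma markers 6 rose and 0 fell, Pmel by 1.45 ± 0.10. Among these 6, Tyrp1 passed the filter only through drug-treated arrays of pmel-1 recipients, and it read 4.87 to 5.21 with vehicle. Of 5 pericyte markers 0 rose and 2 fell, with Rgs5 at 0.40 ± 0.22, and of 6 endothelial markers 2 rose and 1 fell, with Pecam1 at 0.23 ± 0.13. The tested markers of adipocytes (3, Adipoq 1.40 ± 1.18), skeletal muscle (3, Acta1 -1.33 ± 0.54) and keratinocytes (2, Krt5 -0.04 ± 0.08) had 0 calls, and 1 of 2 tested Schwann cell markers rose.

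Genes that handle collagen were taken from lists chosen with earlier results of these data known. Of 15 tested genes for modifying and folding the chains in the cell, 9 fell and 1 rose with both drugs over both kinds of recipient (median -0.41, against 0.01 over all genes, of which 28.1% rose and 24.5% fell). P3h2, a prolyl 3-hydroxylase that acts on collagen, read 8.90 to 9.54 with both drugs, against 10.61 to 11.04 with vehicle, and fell by 1.68 on the log2 scale (SE 0.12, adjusted p = 8.94e-07). Plod2, which hydroxylates lysines for crosslinks, changed by -1.75 ± 0.15 (adjusted p = 4.23e-06), P4ha2, a subunit of prolyl 4-hydroxylase, by -1.50 ± 0.14 (adjusted p = 6.06e-06) and P3h3 by -0.75 ± 0.08 (adjusted p = 1.56e-05). P4ha2 was lower with dabrafenib than with trametinib, at 6.67 against 7.93 on average (-1.26 ± 0.20, adjusted p = 0.0248), and so was P3h2, at 9.23 against 10.13 (-0.90 ± 0.17, adjusted p = 0.0427).

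Of 8 tested genes for processing and crosslinking outside the cell, 2 rose and 3 fell, against 28.1% up and 24.5% down over all genes. Pcolce2, an enhancer of procollagen C-proteinase, read 11.11 to 12.13 with both drugs, against 7.92 to 9.06 with vehicle, and rose by 3.34 ± 0.16 or 10.2-fold (adjusted p = 8.66e-08), while its relative Pcolce fell by 0.40 on the log2 scale (adjusted p = 0.0093). Adamts3, a procollagen N-proteinase that acts on type II collagen, changed by -2.07 ± 0.12 (adjusted p = 3.07e-07), Loxl3, a lysyl oxidase, by -0.46 ± 0.10 (adjusted p = 0.0017) and Bmp1, the C-proteinase itself, by 0.36 ± 0.10 (adjusted p = 0.0083). Of 8 tested genes of breakdown and uptake 1 rose and 1 fell: the protease inhibitors Timp2 (0.57 ± 0.10) and Timp1 (-0.99 ± 0.18). Ctsk, which encodes the collagen-cleaving cathepsin K, and the uptake receptor Mrc2 had no call (-0.20 ± 0.09 and 0.66 ± 0.31).

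Of 7 tested collagen receptors 5 rose and 1 fell (median 0.31), against 28.1% up and 24.5% down over all genes, and of the 6 calls that of Lair1 held in every alternative and omission in which it was tested. Lair1, an inhibitory collagen receptor of leukocytes, rose by 0.76 ± 0.10 (adjusted p = 6.76e-05), Ddr1, a receptor tyrosine kinase, by 0.31 ± 0.09 (adjusted p = 0.0123) and Itga10, an integrin chain, by 0.19 ± 0.07 (adjusted p = 0.0394), while Itgb1, the shared integrin chain, changed by -0.43 ± 0.10 (adjusted p = 0.0034). The macrophage marker Csf1r rose as well, by 1.55 ± 0.21, as did all 4 macrophage markers, and their part in these changes was not tested. Of 9 tested genes of cartilage matrix and its regulators 2 rose and 3 fell, shares near those of all genes, and 1 of the 3, Hapln1, passed the filter through the vehicle arrays alone. Chst11, a chondroitin sulphotransferase, changed by -1.99 ± 0.11 (adjusted p = 1.77e-07), and Acan, the cartilage proteoglycan aggrecan, by -1.35 ± 0.17 (adjusted p = 5.84e-05). Hapln1, which links aggrecan to hyaluronan, read 3.60 to 4.49 with both drugs, against 5.97 to 8.73 with vehicle, and no difference is given since every drug-treated array lay under the filter level. Sox6, a partner of Sox9 at Col2a1 in cartilage, rose by 0.67 ± 0.09 (adjusted p = 9.56e-05), and Sox9 had no call (-0.17 ± 0.11).

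**Figure D5:**
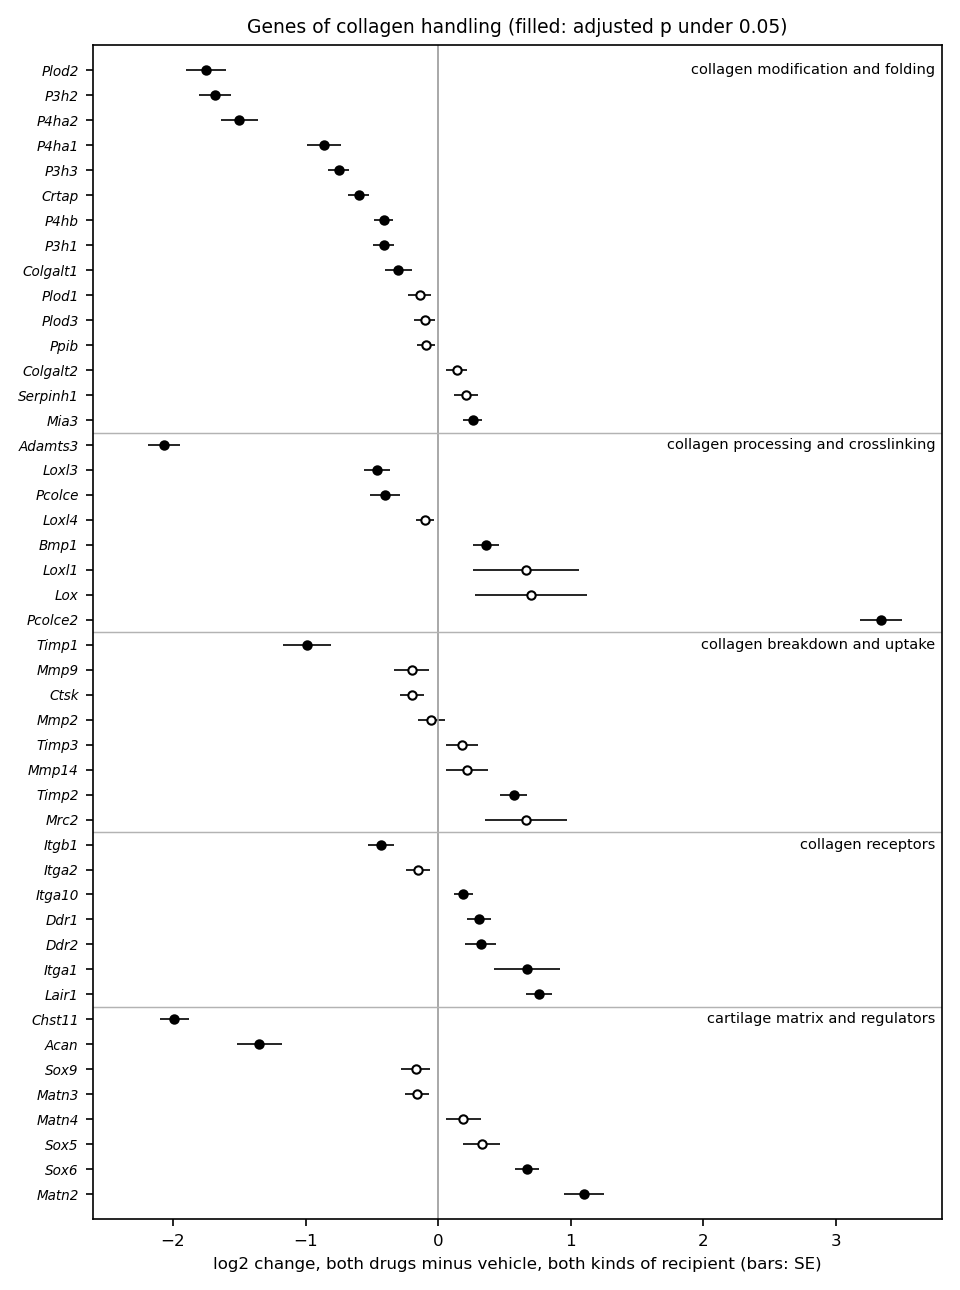
Log2 change with both drugs against vehicle over both kinds of recipient (points, bars are ± 1 SE) of the tested genes of 5 lists around collagen, without Hapln1, which was under the filter level on every array given both drugs. Pcolce2, at 3.34, stands far to the right, and Adamts3, Chst11, Plod2, P3h2 and P4ha2 to the left.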

How the data were processed

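RNA of SM1 tumours, extracted with an RNeasy micro kit, was hybridised as biotinylated cDNA to GeneChip mouse arrays, per the labels' protocols. The authors deposited 1 log2 intensity for each probe set and array, made with RMA and affy per the submitters' processing notes, without versions; the background correction and summarisation cannot be altered here. Detection calls were not used here. Precision is limited by how many arrays there are.

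Of 45101 probe sets 64 are controls, 34945 have 1 gene symbol in the probe table, 932 several and 9160 none. For each of 18193 symbols (0 updated against RefSeq) the probe set with the highest mean was kept, and 13783 genes above the 40th percentile (5.79) in at least 2 arrays were tested. The 6 group means of a gene were fitted jointly by limma 3.58.1 (R 4.3.3, 13 arrays, 7 residual degrees of freedom, 12 contrasts), with Benjamini-Hochberg adjustment within a contrast, and the script was tested on simulated data. Contrasts over both kinds of recipient weight them equally. 11 alternatives and 13 single-array omissions were run. No pair of arrays held identical values. The labels do not say that replicate numbers pair the samples, and the main fit did not use them. Deviations of same-numbered arrays of different groups correlated at -0.46 to 0.45, over 0.1 in 4 of 23 pairs. For differently numbered arrays it was 16 of 47 pairs. In a group of 2 arrays the deviations mirror each other, so these values cannot decide whether the samples were paired.

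The members and lists were chosen with earlier results of these data known. Values in every array are given for up to 4 tested members of each class with the highest mean and for changed members with the largest changes (up to 6 each way). Of the lists around collagen up to 4 genes with the smallest p were named, and of the marker lists the first. Pcolce, Lum, Dcn, Fap and Sox9 were named after their values were seen. Not used here were Plin1, Fkbp10, Adamts2, Adamts14, Loxl2 and Itga11.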

Additional observations from a re-analysis of the deposited data

How the results depend on the processing

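Shares in brackets are those of all genes tested under the same setting. With both drugs, recipients pooled, 12 collagen genes changed, and 8 to 16 when 1 array was left out (45.5% to 53.7%). Col2a1, Col4a4, Col18a1, Col5a2 and Col20a1 kept their call in all 11 alternatives and 13 omissions, and no call of any collagen gene changed sign. Within comparisons the counts over the omissions were 4 to 14 (combination in pmel-1 recipients), 5 to 11 (combination in control recipients), 4 to 17 (dabrafenib), 3 to 6 (trametinib), 0 to 4 (dabrafenib against trametinib), 0 to 0 (combination against dabrafenib, combination against trametinib, transfer among vehicle tumours, interaction), 0 to 1 (transfer over both arms) and 0 to 2 (transfer among combination tumours). After adjustment for the 3′ over 5′ ratio 3 genes changed for the combination in pmel-1 recipients (20%, against 45.6% without it) and 3 for dabrafenib (18.2%, against 41.4%). With the adipocyte marker level as a covariate there were 5 for dabrafenib (35%), 2 for the combination against trametinib (2.95%), 1 for the transfer over both arms (2.71%) and 2 for it among combination tumours (2.81%). Leaving out the 3 arrays with high adipocyte markers gave 4 for dabrafenib (24.1%) and 1 for the combination against trametinib (0.737%). With the fibroblast marker level, added after the data were seen, there was 1 each for dabrafenib against trametinib (1.78%), the combination against trametinib (2.05%), the transfer among combination tumours (4.18%) and the interaction (1.08%). The mean over probe sets, the stricter filter, median centring and quantile normalization each gave 1 for the transfer among combination tumours (3.95% to 5.65%). With only the arrays compared, trametinib gave 13 (40.1%, against 38.6%). Apart from the covariates and the smaller sets of arrays, the cause of these moves was not tested. The replicate number as a block, which the labels do not say pairs the samples, gave 11 with both drugs pooled over recipients, 7 within pmel-1 and 6 within control recipients, 9 for dabrafenib and 6 for trametinib. Of 28 genes called on the lists around collagen with both drugs pooled over recipients, 19 kept their call in every alternative and omission in which they were tested, and so did 15 of 19 called markers. These counts include Hapln1, which passed the filter through vehicle arrays alone, and Tyrp1, which passed it through drug-treated arrays alone. Mia3, a protein of collagen export, reversed to -0.03 (against 0.26) as the mean over probe sets. Bmp1 lost its call in 2, Timp2 and Itgb1 in 1 each, Ddr1 in 4, Itga10 in 17 and Fap in 7. Signal near background limits the 11 collagen genes that were not tested, and no size is given for the second probe set of Col25a1 or for Hapln1.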
